A study of Mus musculus with 24 samples.

Results

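The lateral septum of defeated mice was compared between the later days 4 and 7 and the first day of chronic social defeat stress (CSDS), and this change was set beside the same change in unstressed mice. The 9 defeated libraries are 6 later libraries, 3 from day 4 and 3 from day 7, and 3 libraries from day 1, out of 24 in the series. The 9 control libraries are divided in the same way. The tested genes were the 18060 of 28859 deposited genes that passed a filter on low counts. The series concerns MANF, an endoplasmic reticulum (ER) resident protein, and ER function during repeated defeat.

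All mice were male C57BL/6J, and the labels give the same age range, 8 to 14 weeks, for every library. Defeated mice met an aggressive CD-1 male for 10 minutes a day in a course of 10 days and were kept behind a clear divider between sessions. Controls lived in the same way without defeat. No group carries a transgene or a deletion. Nothing in the labels ties a library to an animal of its own, so the p-values measure the spread between libraries, which may in part be technical. They name no batch, and day, exact age and any handling by day cannot be told apart. The hour of tissue collection is not given in the sources used here.

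The lateral septum is a largely GABAergic nucleus that links the hippocampus with the hypothalamus and takes part in social and defensive behaviour. Secreted and membrane proteins are folded in the ER by chaperones such as BiP, the product of Hspa5. When unfolded proteins accumulate, the unfolded protein response raises the transcription of these chaperones and of the machinery that carries misfolded proteins out for degradation. Heat shock factor 1 does the same for the chaperones of the cytosol. Immediate early genes such as Fos and Egr1 are transcribed within minutes of neuronal activity, and their transcripts are short-lived.

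Total counts ran from 32129140 to 38860190 in the later CSDS libraries and from 37505161 to 38582203 in the day 1 CSDS libraries. Values below are CPM, read counts scaled to the library size by edgeR's TMM method, and changes are log2 values of days 4 and 7 minus day 1 with their standard error (SE). The median SE of the change was 0.114 among defeated mice. Summed markers of lateral septum neurons were 4440 to 5390 CPM in the later CSDS libraries and 4030 to 4770 CPM on day 1. The dissections were uneven: the choroid plexus marker Ttr ran from 7.98 to 3160 CPM in the later CSDS libraries and from 16.6 to 7640 CPM on day 1. Slc17a7, a marker of cortical and hippocampal excitatory neurons, ran from 15.9 to 201 CPM in the later CSDS libraries and from 34 to 319 CPM on day 1. In bulk tissue, fewer cells of a type and less RNA per cell cannot be told apart.

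Many genes differed between the later days and the first day in defeated mice, and most of them moved the same way in controls. edgeR's quasi-likelihood test called 5674 genes at an adjusted p under 0.05, or 31.4% of those tested. Of these, 2340 rose, 13% of all genes tested, and 3334 fell, 18.5%; without the library D1-CSDS 2 there were 3986 calls, of which 2146 were lower. In controls 4308 genes were called, 23.9%, with 1513 higher, 8.38%, and 2795 lower, 15.5%. In controls the share of called genes that were higher was 35.1% with TMM, 45.7% with RLE size factors, 48.3% with DESeq2 and 24.9% with limma on FPKM.

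The CSDS and control changes share no library, but they share the days. Of the 5674 genes called in defeated mice, 3335 were also called in controls with the same sign, which is 58.8% of the CSDS calls and 77.4% of the control calls. These shared genes comprised 1138 that rose and 2197 that fell. A further 2106 CSDS calls had the same sign in controls without passing there, so that 5441, or 95.9%, pointed the same way. Over all genes tested, called or not, 13661 of 18060 had the same sign in both arms. Across genes, the CSDS and control changes had a Pearson r of 0.409 and a Spearman rho of 0.57, a description over genes that are not independent replicates. Changes were mostly small: 346 of the called genes, 6.1%, had an absolute log2 change over 1.

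No gene passed the test of the CSDS change minus the control change in edgeR, which is 0% of 18060 genes. At an unadjusted p under 0.05, 1296 genes, 7.18%, differed, of which 712 (3.94%) had the higher change in defeated mice and 584 (3.23%) the lower. The DESeq2 test made 23 calls here. The median SE of the difference was 0.161. By this test no change of the defeated mice can be named as not shared with controls: besides the 3335 shared calls, 2339 calls remained undecided. Leaving out the library D4-Ctrl 2 gave 4 calls, and fitting without D10-Ctrl 1 gave 9. The second of these libraries lies outside the groups compared and stood apart from its group, with 720 CPM of Hspa5 against 403 and 317 CPM in the other day 10 controls.

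**Figure D1:**
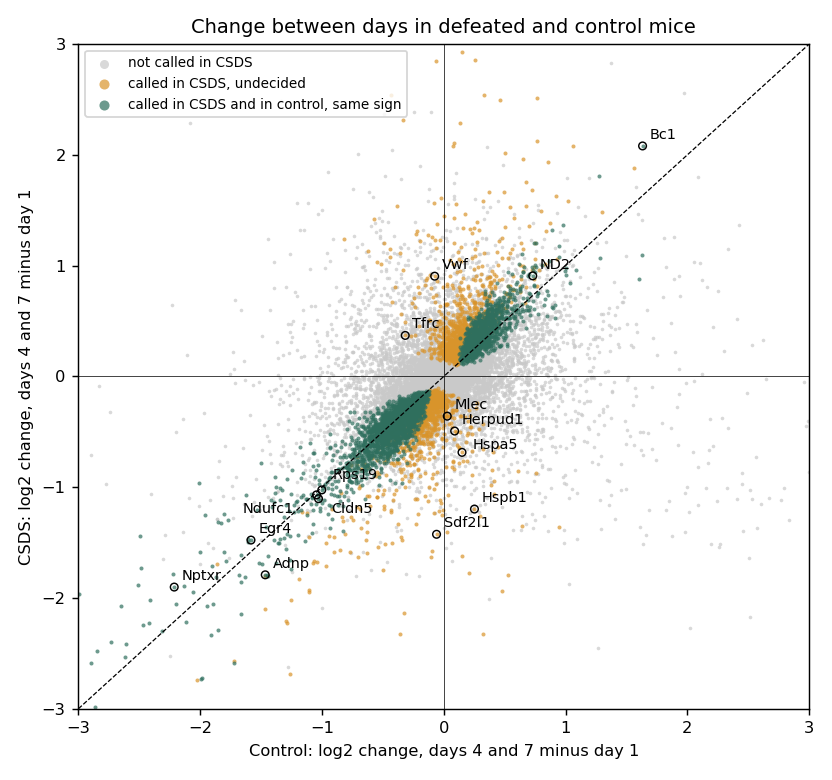
Each point is 1 gene, with its log2 change (days 4 and 7 minus day 1) in CSDS on the vertical axis and in control mice on the horizontal axis. Green genes were called in both with the same sign, orange genes were called in CSDS and are undecided, grey genes were not called in CSDS, and the dashed line marks equal change; genes beyond an absolute change of 3 are not drawn. Ndufc1, Rps19, Cldn5 and Egr4 lie along the dashed line, while Sdf2l1, Hspb1, Hspa5, Herpud1 and Mlec lie below it and Tfrc and Vwf above it.

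The change between days followed the base composition of the transcripts in both arms. The genes were put in 4 equal bins by GC content. In the bin with the lowest GC content, the median log2 change was 0.19 in defeated mice and 0.13 in controls. In the bin with the highest GC content it was -0.30 in defeated mice and -0.25 in controls. Of the genes in the lowest bin, 34% were called higher in defeated mice and 2.73% lower, and of those in the highest bin 0.732% were called higher and 46% lower. Genes called higher had a median GC content of 43.6% and a median length of 6060 bases, against 55.6% and 2880 bases for genes called lower.

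The Spearman rho between GC content and the change, across 16402 genes, was -0.57 in defeated mice, -0.46 in controls and -0.22 for the difference between them. Per library, the deviation from the mean of all libraries had a rho with GC content of -0.24 to -0.53 in the 12 later libraries. It was 0.1 to 0.44 in the 6 day 1 libraries and 0.15 to 0.44 in the 6 day 10 libraries, so that days 4 and 7 stood on one side and days 1 and 10 on the other. When the trend with GC content and length was removed from each library, a step added after seeing the data, 2716 genes were called in defeated mice and 2199 in controls. The shared calls then numbered 1331, or 49% of the CSDS calls and 60.5% of the control calls, and again no gene passed for the difference. Over all 16402 genes this left 7.05% called higher and 9.5% lower in defeated mice, and 5.04% higher and 8.36% lower in controls. Whether this trend comes from the tissue or from the libraries was not tested.

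**Figure D2:**
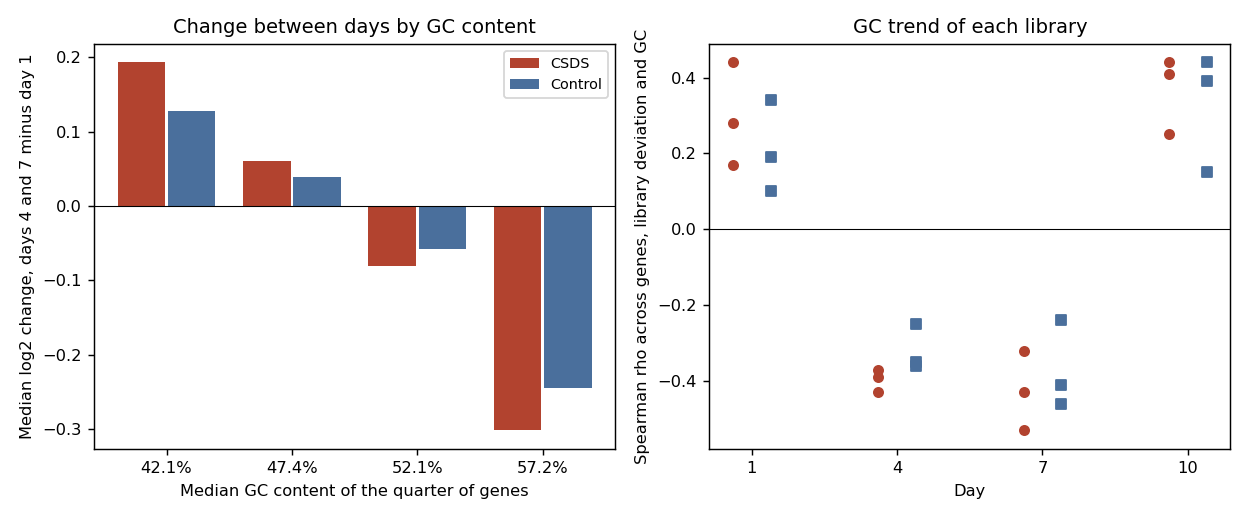
The bars on the left give the median log2 change (days 4 and 7 minus day 1) of genes in 4 bins of GC content, for CSDS and control, and step down from 0.19 to -0.30 in CSDS. The points on the right give, for each library of days 1, 4, 7 and 10, the Spearman rho across genes between GC content and the library's deviation from the mean of all libraries; all 12 libraries of days 4 and 7 are below 0 and all 12 of days 1 and 10 above it.

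Chaperones and degradation factors of the ER fell in defeated mice, while in controls about as many rose as fell. Of 47 ER genes tested, 22 fell and 4 rose in defeated mice, with a median change of -0.21 beside -0.02 over all genes. Over all genes 18.5% fell and 13% rose there. Without D1-CSDS 1, 15 ER genes fell and 4 rose, with a median of -0.14. That library had the most Ttr of the defeated libraries, 7640 CPM, and the most Hspa5, 623 CPM. In controls 6 fell and 5 rose, with a median of 0.01, beside 15.5% lower and 8.38% higher over all genes. For the difference, 18 of the 47 had the lower change in defeated mice at an unadjusted p under 0.05, against 3.23% of all genes. None had the higher change, against 3.94% of all genes. After adjustment over all genes none passed in edgeR. DESeq2 results for the difference were read by gene only for a fixed set and the 5 genes with the smallest edgeR p. Among those, DESeq2 called the ER genes Herpud1 (adjusted p = 0.00078), Mlec (adjusted p = 0.00108), Sdf2l1 (adjusted p = 0.00498) and Calr (adjusted p = 0.022) lower. After removal of the GC and length trend, 18 of 45 fell and 1 rose in defeated mice, with a median of -0.19, beside 9.5% and 7.05% of all genes. In controls 3 then fell and 3 rose, beside 8.36% and 5.04%. With choroid plexus and cortex scores as covariates, 25 of 47 fell and 4 rose in defeated mice, with a median of -0.2. In controls 7 then fell and 6 rose, with a median of -0.04. Over all 18060 genes this fit called 3737 lower and 2736 higher in defeated mice, and 2368 and 1357 in controls. The median difference of the ER genes was -0.11 in this fit and -0.17 in the main test. The part of choroid plexus in the ER values was not tested.

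Hspa5 encodes BiP, the main HSP70 chaperone of the ER. It ran from 255 to 385 CPM in the 6 later CSDS libraries, with a median of 326, against 623, 493 and 472 CPM on day 1. Later controls ran from 310 to 496 CPM, with a median of 420, against 355, 392 and 394 CPM in day 1 controls. The later and first day groups did not overlap in defeated mice and did in controls, and the highest library of all these was from day 1 of CSDS. Hspa5 fell by 0.69 on the log2 scale in defeated mice (SE 0.17, edgeR adjusted p = 0.00307), and its change in controls was 0.15 (SE 0.17, edgeR adjusted p = 0.571). The difference of -0.84 had an edgeR adjusted p of 0.438 and an unadjusted p of 0.0022.

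Sdf2l1, a cofactor of BiP in the ER, showed the same layout at a lower level. Its later CSDS libraries held 5.5 to 8.52 CPM, with a median of 7.15, against 24.5, 18.5 and 14.8 CPM on day 1. Later controls held 6.1 to 13.3 CPM, with a median of 10.9, and day 1 controls 9.32, 12.1 and 11.6 CPM. The groups were apart in defeated mice and overlapped in controls. Sdf2l1 fell by 1.43 in defeated mice (SE 0.20, edgeR adjusted p = 2.16e-05). In controls the change was -0.06 (SE 0.21), and the difference of -1.37 did not pass (edgeR adjusted p = 0.253, lowest 0.0797 and highest 0.63 when single libraries were left out).

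Manf encodes an ER protein that is retained by BiP and can be secreted as a neurotrophic factor. It had 36.5 to 50.1 CPM in the later CSDS libraries, with a median of 42.6, against 80, 59.4 and 60.2 CPM on day 1. Controls had 43.5 to 64.5 CPM later, with a median of 53.8, and 45.8, 52.1 and 50.8 CPM on day 1. The defeated groups did not overlap, whereas the day 1 controls lay inside the range of the later controls. Manf fell by 0.63 in defeated mice (SE 0.14, edgeR adjusted p = 0.00174) and its difference from controls was -0.76 (SE 0.21, edgeR adjusted p = 0.401). The related gene Cdnf had a change of 0.40 (SE 0.25, edgeR adjusted p = 0.238) from about 1 CPM, and its groups overlapped.

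Herpud1, a membrane component of ER-associated degradation, and Mlec, an ER lectin that binds N-glycans on new proteins, were among the 5 genes with the smallest p for the difference. Herpud1 had 41 to 46.9 CPM in the later CSDS libraries, with a median of 45.1, against 69.6, 61.3 and 55.8 CPM on day 1, and fell by 0.49 (SE 0.07, edgeR adjusted p = 2.7e-05). Mlec had 153 to 178 CPM later, with a median of 160, against 207, 208 and 206 CPM on day 1, and fell by 0.36 (SE 0.05, edgeR adjusted p = 1.36e-05). In controls the changes were 0.09 for Herpud1 and 0.03 for Mlec, neither of which passed. Both differences, -0.58 and -0.39, had an edgeR adjusted p of 0.0833, and that of Herpud1 passed without D4-Ctrl 2 or D1-CSDS 3 (lowest adjusted p 0.0114). DESeq2 called both differences (adjusted p = 0.00078 and 0.00108). With the GC and length trend removed, Herpud1 fell by 0.32 in defeated mice.

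Among the other ER genes, Creld2, a secreted factor induced by ER stress, had 13.5 to 16.7 CPM in the later CSDS libraries, with a median of 14.8, against 30.8, 24.7 and 25.6 CPM on day 1. It fell by 0.86 (SE 0.14, edgeR adjusted p = 0.000116), with a change of -0.06 in controls. Calr, the lectin chaperone calreticulin, behaved otherwise, and its defeated groups overlapped. It had 409 to 481 CPM later and 576, 525 and 480 CPM on day 1 in defeated mice (change -0.23, SE 0.09, edgeR adjusted p = 0.0589), while in controls it rose by 0.32 (SE 0.09, edgeR adjusted p = 0.0163), with 481 to 597 CPM later and 406, 441 and 431 CPM on day 1.

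The ligase Syvn1, the translocon subunit Sec61b and Creld1 fell in both arms, by 0.63, 0.83 and 0.56 in defeated mice and by 0.30, 0.52 and 0.31 in controls. Each passed in both, with edgeR adjusted p-values of 2.25e-07, 1.51e-06 and 2.12e-06 in defeated mice. Their later and day 1 libraries did not overlap in either arm. Syvn1, for example, had 34.5 to 39.3 CPM later, with a median of 35.5, against 59, 56.6 and 53.5 CPM on day 1 in defeated mice. Without the GC and length trend Syvn1 fell by 0.37 and Sec61b fell by 0.47, and Creld1 no longer passed (edgeR adjusted p = 0.0526).

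Promoters of ER genes are shown because these genes moved together, and the ER stress response element is the known binding site of the unfolded protein response factors ATF6 and NF-Y. The sequences run from 250 bases before to 50 bases after the annotated start of each gene, from RefSeq on GRCm38.p6, read 5′ to 3′ on the strand of the gene. Both strands were searched for every motif, and this one was written as CCAAT and CCACG with 9 bases of any kind between them. Capitals mark that match, or, in Hsph1, a heat shock element, written as GAA, TTC and GAA with 2 bases between neighbours and found on the opposite strand, and an E-box (CACGTG). The 4 shown are the called genes named here that hold a motif and have the smallest p for the difference; Calr holds the ER stress response element but was not called in defeated mice.

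Hspa5 (chr2:34771840-34772139, plus strand): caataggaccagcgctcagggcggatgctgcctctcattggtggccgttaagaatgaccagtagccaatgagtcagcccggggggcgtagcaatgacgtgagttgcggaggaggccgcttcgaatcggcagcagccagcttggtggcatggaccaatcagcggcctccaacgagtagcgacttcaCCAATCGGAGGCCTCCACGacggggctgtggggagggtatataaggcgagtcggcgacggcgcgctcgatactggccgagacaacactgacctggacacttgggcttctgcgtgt
Creld2 (chr15:88819396-88819695, plus strand): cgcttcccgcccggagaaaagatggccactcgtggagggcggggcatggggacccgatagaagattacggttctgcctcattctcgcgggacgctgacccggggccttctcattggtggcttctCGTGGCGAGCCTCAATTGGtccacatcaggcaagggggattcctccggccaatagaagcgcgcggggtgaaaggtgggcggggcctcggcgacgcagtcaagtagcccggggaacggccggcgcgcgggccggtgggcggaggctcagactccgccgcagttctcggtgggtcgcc
Syvn1 (chr19:6046326-6046625, plus strand): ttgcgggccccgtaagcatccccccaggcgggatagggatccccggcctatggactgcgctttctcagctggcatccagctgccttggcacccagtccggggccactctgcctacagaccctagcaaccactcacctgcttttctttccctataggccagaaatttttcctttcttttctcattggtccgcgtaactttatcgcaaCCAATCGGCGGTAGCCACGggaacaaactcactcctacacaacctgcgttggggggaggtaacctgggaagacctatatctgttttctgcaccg
Hsph1 (chr5:149636287-149636586, minus strand): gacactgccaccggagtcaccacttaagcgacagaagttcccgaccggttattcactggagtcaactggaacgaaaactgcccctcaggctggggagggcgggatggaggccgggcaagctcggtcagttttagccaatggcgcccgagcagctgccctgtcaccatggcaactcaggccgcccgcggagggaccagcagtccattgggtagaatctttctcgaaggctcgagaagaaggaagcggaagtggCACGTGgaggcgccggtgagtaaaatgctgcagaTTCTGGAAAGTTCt

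The element in Hspa5 spans bases -65 to -47 from the start, that in Syvn1 -44 to -26, and that in Creld2 -126 to -108 on the opposite strand. It is present in 0.119% of the 32851 promoters in the table and in the promoters of 10 of the 41 ER genes that have one there. Those 10 were Calr, Canx, Creld2, Derl3, Dnajc3, Ero1b, Hsp90b1, Hspa5, Pdia6 and Syvn1, named after their matches were seen. In defeated mice 5 of the 10 fell and none rose, while in controls 2 rose and 1 fell. The share that fell in defeated mice was about that of the whole ER list, 22 of 47. The 5 were Creld2, Hspa5, Syvn1, Pdia6, a protein disulfide isomerase (change -0.69, SE 0.12), and Derl3, a derlin of the degradation channel (change -1.24, SE 0.30). Derl3 was of low abundance, with a mean of 0.544 CPM later and 1.28 CPM on day 1 in defeated mice. A match is a description of letters and not of binding.

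Cytosolic heat shock genes also fell in defeated mice, and in controls about as many rose as fell. Of 31 tested, 14 fell and 1 rose in defeated mice, with a median change of -0.33, and 3 fell and 4 rose in controls, with a median of 0.01. At an unadjusted p under 0.05, 13 had the lower change in defeated mice and none the higher, beside 3.23% and 3.94% of all genes. None passed after adjustment in edgeR. Among the genes read by name in DESeq2, Hspb1 (adjusted p = 0.000684) and Hsph1 (adjusted p = 0.00498) were called lower for the difference. Over all genes 18.5% fell and 13% rose in defeated mice, and 15.5% fell and 8.38% rose in controls. Once the GC and length trend was removed, 15 fell and none rose in defeated mice, against 9.5% and 7.05% of all genes. In controls 2 then fell and 6 rose, against 8.36% and 5.04% of all genes. The lists of ER and heat shock genes were chosen with earlier results of these data known.

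Hspb1, a small heat shock protein, had 4.02 to 5.71 CPM in the later CSDS libraries, with a median of 4.57, against 12.5, 10.4 and 9.31 CPM on day 1. Later controls had 6.08 to 13.7 CPM, with a median of 7.59, against 6.58, 7.67 and 7.61 CPM in day 1 controls. Again the groups were apart in defeated mice and overlapped in controls, where day 4 held the highest library. Hspb1 fell by 1.20 in defeated mice (SE 0.19, edgeR adjusted p = 6.31e-05), and fell by 0.65 with the GC and length trend removed. Its change in controls was 0.25 (SE 0.20), and the difference of -1.45 (SE 0.28) had an edgeR adjusted p of 0.116, and 0.0222 without D4-Ctrl 2.

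Hsph1, an HSP110 nucleotide exchange factor, had 300 to 382 CPM later, with a median of 325, against 427, 435 and 411 CPM on day 1 in defeated mice, and fell by 0.36 (SE 0.08, edgeR adjusted p = 0.00215). In controls it had 367 to 498 CPM later and 316, 409 and 397 CPM on day 1, and its change of 0.21 had an edgeR adjusted p of 0.0741. Its promoter, shown above, is 1 of 5 among 25 heat shock gene promoters that hold the heat shock element, which is in 0.603% of all promoters; 7.15% hold the E-box. The co-chaperone Fkbp4 fell by 0.43 in defeated mice (SE 0.07, edgeR adjusted p = 6.24e-05), with a change of -0.06 in controls, and did not pass without the GC and length trend (edgeR adjusted p = 0.104). Dnajb1, an HSP40 co-chaperone, and Jmjd6 fell in both arms, Dnajb1 by 0.65 in defeated mice (SE 0.08) and by 0.28 in controls (SE 0.08). The later days of controls were not alike for these genes. Dnajb1 had 104 to 134 CPM in day 4 controls, 52.3 to 64.3 CPM on day 7 and 92.1 to 104 CPM on day 1. Jmjd6 had 25.5 to 29.9 CPM in day 4 controls, 19.2 to 20.2 CPM on day 7 and 27.1 to 27.6 CPM on day 1.

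The HSP70 genes Hspa1a and Hspa1b are near-identical, so counting may have split their reads and their values are uncertain. In defeated mice Hspa1b had 3.01 to 7.84 CPM later, with a median of 4.61, against 17, 14.7 and 11.7 CPM on day 1. Later controls ran from 5.75 to 49.4 CPM, so that their spread covered the day 1 controls at 9.7, 19.2 and 15.9 CPM. That spread was split by day. Day 4 controls had 49.4, 15.8 and 27.1 CPM. Day 7 controls had 5.97, 7.32 and 5.75 CPM, each below every day 1 control. Hspa1b fell by 1.57 in defeated mice (SE 0.31, edgeR adjusted p = 0.000577) and Hspa1a by 1.15 (SE 0.27, edgeR adjusted p = 0.00224). Hspa1a did not pass with the GC and length trend removed (edgeR adjusted p = 0.0539).

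**Figure D3:**
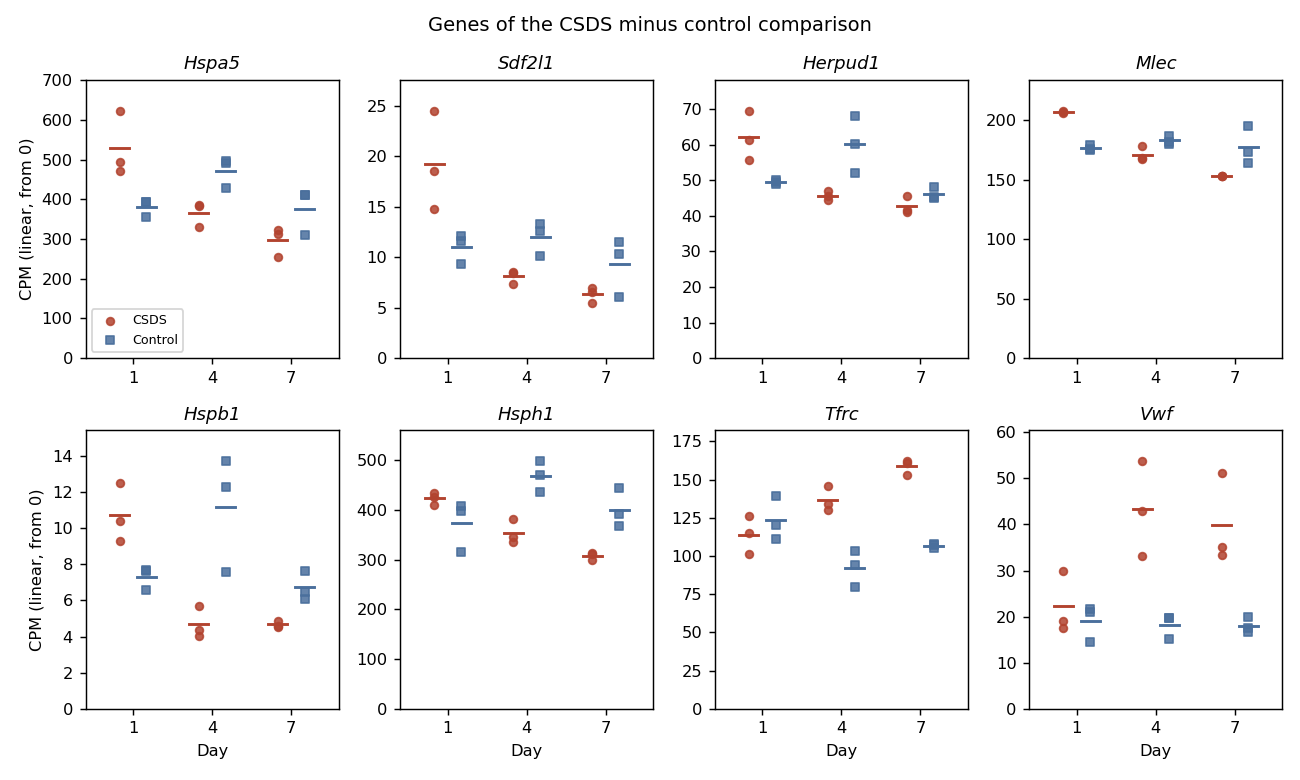
Points are CPM of single libraries on a linear axis from 0, at days 1, 4 and 7, with CSDS (circles) left of control (squares) and bars at the mean of 3 libraries. Hspa5, Sdf2l1, Herpud1, Mlec, Hspb1 and Hsph1 are lower in CSDS on days 4 and 7 than on day 1, Tfrc and Vwf are higher; control libraries of the later days overlap those of day 1, except for Tfrc, which is lower in the later controls.

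The transferrin receptor Tfrc, which brings iron into cells, had the smallest p for the difference. It had 130 to 162 CPM in the later CSDS libraries, with a median of 149, against 101, 115 and 126 CPM on day 1. Later controls had 79.6 to 108 CPM, with a median of 104, against 120, 111 and 139 CPM in day 1 controls. Neither pair of groups overlapped, and they moved in opposite directions: Tfrc rose by 0.37 in defeated mice (SE 0.08, edgeR adjusted p = 0.00124) and fell by 0.32 in controls (SE 0.08, edgeR adjusted p = 0.00503).

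The difference for Tfrc was 0.69 (SE 0.11, edgeR adjusted p = 0.0709). Its adjusted p ran from 0.0114 to 0.329 when single libraries were left out, below 0.05 without D4-Ctrl 2, D1-CSDS 3 or D1-Ctrl 2. DESeq2 called it. With the GC and length trend removed, the change in defeated mice was 0.12 (edgeR adjusted p = 0.298). Of 14 iron genes tested, 3 rose and 3 fell in defeated mice, and none rose and 3 fell in controls. Over all genes 13% rose and 18.5% fell in defeated mice, and 8.38% rose and 15.5% fell in controls. Without D1-CSDS 2, 1 iron gene rose and 1 fell in defeated mice. Without the trend none rose and 3 fell there, beside 7.05% and 9.5% of all genes. Ftl1, the ferritin light chain, fell in both arms, by 0.52 and 0.40, though in defeated mice it no longer passed without the trend (edgeR adjusted p = 0.16).

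Only 4 genes passed in both arms with opposite signs, and they are named here after their values were seen. Besides Tfrc they were Hnrnpdl, an RNA-binding protein, with 0.21 in defeated mice and -0.21 in controls, Osgepl1 with 0.37 and -0.27, and Gpr17, a receptor of differentiating oligodendrocyte precursors, with -0.24 and 0.27. Hnrnpdl had 149 to 202 CPM later and 152, 138 and 155 CPM on day 1 in defeated mice, so these groups overlapped. The difference for Hnrnpdl, 0.42, had an edgeR adjusted p of 0.0833 (0.0257 without D4-Ctrl 2), and DESeq2 called it (adjusted p = 0.0008). Its CSDS change was carried by day 7, at 0.36 (edgeR adjusted p = 0.000229), with 0.06 on day 4 (edgeR adjusted p = 0.564).

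Of the cold-inducible RNA-binding and splicing factors, 8 rose and 9 fell among 37 in defeated mice, beside 13% and 18.5% of all genes. In controls 2 rose and 11 fell, beside 8.38% and 15.5% of all genes. Without D1-CSDS 1, 4 fell in defeated mice, without D1-CSDS 2 5 rose and 5 fell, and without D7-CSDS 1 5 fell. The count in defeated mice was 1 higher and 12 lower without the GC and length trend, beside 7.05% and 9.5% of all genes. Rbm3, a cold-shock RNA-binding protein, rose by 0.34 in defeated mice (SE 0.10, edgeR adjusted p = 0.00979), with 37.5 to 51.8 CPM later against 35.4, 34.2 and 32.9 CPM on day 1, and its change in controls was -0.07. It did not pass with the GC and length trend removed (edgeR adjusted p = 0.271). Its relative Cirbp had a change of 0.18 in defeated mice (edgeR adjusted p = 0.24), or 0.38 without the trend, where it passed (edgeR adjusted p = 0.0259), and fell by 0.33 in controls (SE 0.11, edgeR adjusted p = 0.0278). Ccnl2 and Srsf9 fell in both arms, by 0.59 and 0.50 in defeated mice.

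Immediate early genes were lower on the later days in both arms. Of 45 tested, 28 fell and 1 rose in defeated mice, beside 18.5% and 13% of all genes. In controls 32 fell and none rose, beside 15.5% and 8.38% of all genes, and 28 calls were shared. The median change was -0.53 in defeated mice and -0.72 in controls, and none passed for the difference. With the GC and length trend removed, 23 fell in defeated mice and 25 in controls, beside 9.5% and 8.36% of all genes.

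Egr1, a zinc finger transcription factor, had 113 to 148 CPM in the later CSDS libraries, with a median of 125, against 224, 231 and 168 CPM on day 1. Later controls had 136 to 242 CPM, with a median of 183, against 294, 365 and 296 CPM in day 1 controls. Neither pair of groups overlapped, and the day 1 controls stood above the day 1 defeated mice. Egr1 fell by 0.71 in defeated mice (SE 0.10, edgeR adjusted p = 1.35e-05) and by 0.82 in controls (SE 0.10, edgeR adjusted p = 5.24e-06). Without the GC and length trend it fell by 0.41 in defeated mice.

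Fos, a subunit of the AP-1 factor, had 7.04 to 10.6 CPM in the later CSDS libraries, with a median of 8.94, against 18.3, 19.3 and 13.1 CPM on day 1. Controls had 10.1 to 26.6 CPM later, with a median of 19.6, and 56.3, 47.2 and 33.1 CPM on day 1. The steps were of like kind from unequal starting levels: Fos fell by 0.91 in defeated mice (SE 0.24, edgeR adjusted p = 0.00589) and by 1.39 in controls (SE 0.23, edgeR adjusted p = 0.000183). Fosb fell by 1.68 and 1.38, and Egr4 by 1.48 and 1.58, in defeated mice and controls. Without the trend Egr4 fell by 0.74 in defeated mice. Egr2 fell by 0.79 in defeated mice (SE 0.21), with 1.68 to 3.49 CPM later, against 4.19, 4.85 and 3.93 CPM on day 1, and its difference from the fall in controls was 0.71 (edgeR adjusted p = 0.646).

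Jund, another AP-1 subunit, had 57.1 to 64.3 CPM later, with a median of 61, against 115, 131 and 112 CPM on day 1 in defeated mice, and controls had 57.1 to 68.4 CPM later against 118, 125 and 111 CPM on day 1. The ranges of the arms lay almost on each other, with falls of 0.97 and 0.92 (SE 0.06 each). In defeated mice the fall of Jund was 0.31 once the GC and length trend was removed. Vgf, a secreted neuropeptide precursor, fell by 0.94 in defeated mice (SE 0.08, edgeR adjusted p = 3.99e-08) and by 0.44 in controls (SE 0.08), and by 0.42 in defeated mice without the trend. Npas4, an activity-dependent factor of neurons, had a change of -0.52 in defeated mice (edgeR adjusted p = 0.25).

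Among 23 clock genes, 8 fell and 3 rose in defeated mice, and 6 fell and 4 rose in controls; 4 fell in defeated mice without D1-CSDS 2, and likewise 4 without the GC and length trend. Over all genes 18.5% fell and 13% rose in defeated mice, or 9.5% and 7.05% without the trend. In controls 15.5% of all genes fell and 8.38% rose. Per1, which also responds to activity and to glucocorticoids, had 47.6 to 59.2 CPM in the later CSDS libraries, with a median of 56.2, against 97.9, 90.8 and 77.1 CPM on day 1. It fell by 0.69 in defeated mice (SE 0.13, edgeR adjusted p = 0.000374) and by 0.74 in controls (SE 0.13, edgeR adjusted p = 0.000282). Without the trend Per1 fell by 0.43 in defeated mice. The clock output gene Dbp had changes of 0.13 and 0.22, neither of which passed, whereas without the trend its change in defeated mice was 0.60 and passed (edgeR adjusted p = 7.54e-05). Nfil3 fell in both arms, by 0.72 and 0.64.

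Of 33 glucocorticoid-responsive genes, 12 fell and 3 rose in defeated mice, and 7 fell and 1 rose in controls. The medians were -0.25 and -0.04. Of all genes 18.5% fell and 13% rose in defeated mice, and 15.5% fell and 8.38% rose in controls. Without D1-CSDS 2, D4-CSDS 3 or D7-CSDS 2, 1 rose. The median in defeated mice was -0.03, with 8 lower and 1 higher, once the GC and length trend was removed, beside 9.5% and 7.05% of all genes. Fkbp5, a brake on the glucocorticoid receptor, had 48 to 53.8 CPM later, with a median of 50, against 59.1, 68.5 and 59 CPM on day 1 in defeated mice, and fell by 0.30 (SE 0.09, edgeR adjusted p = 0.0108). Without the library D1-CSDS 2 it did not pass (edgeR adjusted p = 0.137), nor without the trend (edgeR adjusted p = 0.0783). Its change in controls was 0.01.

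Tsc22d3, the leucine zipper protein GILZ, had 62.3 to 69.5 CPM later, with a median of 63.5, against 87.8, 85.2 and 95 CPM on day 1 in defeated mice. It fell by 0.46 (SE 0.12, edgeR adjusted p = 0.00406), with a change of -0.07 in controls and a difference of -0.39 (edgeR adjusted p = 0.664). Sgk1, a kinase gene, had a change of 0.35 (SE 0.36) with overlapping groups. Mt1, a metallothionein, and Cdkn1a, a cell cycle inhibitor, fell in both arms, Cdkn1a by 0.98 in defeated mice and by 0.53 in controls.

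In the integrated stress response list, 8 of 29 genes fell and 1 rose in defeated mice, with a median of -0.15, beside 18.5% lower and 13% higher over all genes, and 5 fell and 2 rose in controls, beside 15.5% and 8.38%. Cebpb, a transcription factor, fell by 1.46 in defeated mice (SE 0.19, edgeR adjusted p = 8.56e-06) and fell by 1.35 in controls, with 0.906 to 1.37 CPM later, and a median of 1.09, against 2.94, 3.66 and 2.56 CPM on day 1 in defeated mice. Ddit4, an inhibitor of mTORC1, fell by 0.73 and 0.85 in the arms, and Atf5 by 0.70 and 0.45. Without the GC and length trend Cebpb fell by 0.74 in defeated mice. Of the list 4 genes then fell and 1 rose, with a median of -0.06, beside 9.5% and 7.05% of all genes. Neither Ddit4 nor Atf5 passed in defeated mice without the trend (edgeR adjusted p = 0.0584 and 0.212).

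**Figure D4:**
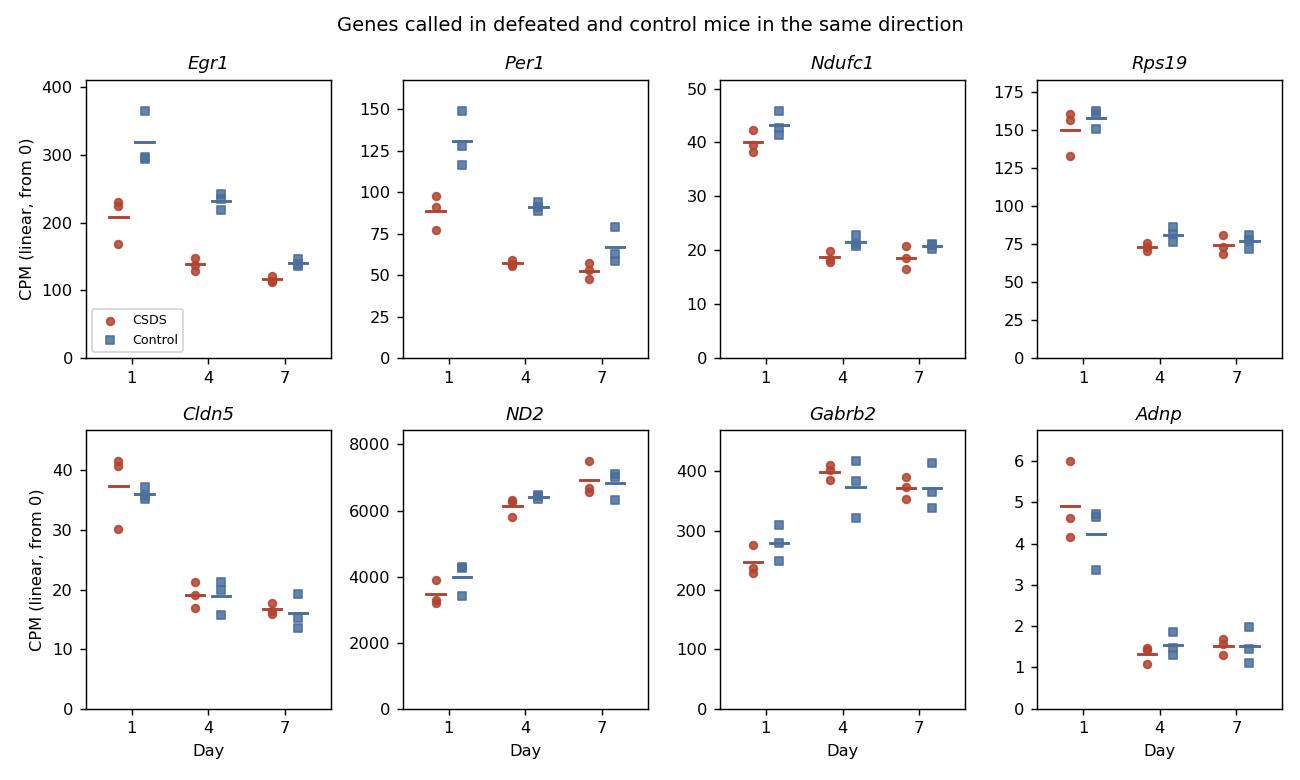
Points are CPM of single libraries on a linear axis from 0, at days 1, 4 and 7, with CSDS (circles) left of control (squares) and bars at the mean of 3 libraries. Egr1, Per1, Ndufc1, Rps19, Cldn5 and Adnp are lower on days 4 and 7 than on day 1 in both arms, and ND2 and Gabrb2 are higher; Ndufc1 goes to 16.5 to 20.8 CPM in the later CSDS libraries, against 38.3 to 42.4 CPM on day 1.

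Nuclear genes of oxidative phosphorylation fell and several mitochondrially encoded genes rose, in both arms. Of 75 nuclear genes, 48 fell and 2 rose in defeated mice, beside 18.5% and 13% of all genes. In controls 44 fell and 3 rose, beside 15.5% and 8.38% of all genes. The nuclear genes had 42 shared calls and medians of -0.23 and -0.22. After removal of the GC and length trend, the counts in defeated mice were 24 lower and 10 higher, with a median of -0.06, beside 9.5% and 7.05% of all genes. Of 13 mitochondrially encoded genes, 7 rose and 2 fell in defeated mice, with a median of 0.78, and none fell without D1-CSDS 1, D1-CSDS 3, D7-CSDS 2 or D7-CSDS 3; 7 rose and 1 fell in controls, with a median of 0.40. These 13 had no GC content in the reference table, so the trend could not be removed from them.

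Ndufc1, a small subunit of complex I, had 16.5 to 20.8 CPM in the later CSDS libraries, with a median of 18.5, against 39.6, 38.3 and 42.4 CPM on day 1. Controls had 20.3 to 22.8 CPM later, with a median of 21.1, against 41.3, 42.7 and 45.9 CPM on day 1. The later libraries of both arms lay together, far from those of day 1. The falls were 1.10 in defeated mice (SE 0.07, edgeR adjusted p = 1.53e-09) and 1.03 in controls (SE 0.07, edgeR adjusted p = 8.68e-09), and 1.11 in defeated mice without the trend.

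Ndufb2 fell by 1.21 and 1.01, Atp5e, a subunit of ATP synthase, by 0.89 and 0.75, and Cox8a, a subunit of cytochrome oxidase, by 0.71 and 0.60, in defeated mice and controls. Without the trend Cox8a fell by 0.27 in defeated mice. ND2, a complex I subunit encoded in the mitochondrial genome, had 5790 to 7490 CPM later, with a median of 6440, against 3210, 3290 and 3910 CPM on day 1 in defeated mice. Later controls had 6330 to 7120 CPM, against 3410, 4290 and 4260 CPM on day 1. No libraries overlapped between the later days and day 1, and ND2 rose by 0.91 (SE 0.09, edgeR adjusted p = 4.89e-07) and 0.73 (SE 0.09, edgeR adjusted p = 1.01e-05). ND4, CYTB and ND3 rose by 0.79, 0.78 and 1.11 in defeated mice and by 0.63, 0.59 and 0.64 in controls.

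Ribosomal protein genes were divided. Of 77 tested, 35 fell and 8 rose in defeated mice, with a median of -0.12, beside 18.5% and 13% of all genes. In controls 30 fell and 6 rose, with a median of -0.13, beside 15.5% and 8.38% of all genes. With the GC and length trend removed, 19 fell and 25 rose in defeated mice, beside 9.5% and 7.05% of all genes. The median of the list was then 0.03, so its direction depends on that trend. Without D1-CSDS 2, 23 fell. Rps19 kept its fall: it had 68.4 to 81 CPM later, with a median of 73.2, against 133, 161 and 157 CPM on day 1 in defeated mice, and fell by 1.02 (SE 0.06, edgeR adjusted p = 1.27e-09) and by 1.00 in controls, and by 0.90 in defeated mice without the trend. Fau, Rpl34 and Rps2 fell in both arms, by 0.69, 0.54 and 0.47 in defeated mice. Without the trend Fau fell by 0.20, Rpl34 fell by 0.24 and Rps2 fell by 0.14. Reads of ribosomal genes can be shared with their pseudogenes.

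Among 36 proteasome genes, 11 fell and 1 rose in defeated mice and 12 fell in controls, where 18.5% of all genes fell in defeated mice and 15.5% in controls; 6 fell without D1-CSDS 2 and 6 without D1-CSDS 3. Psmb5, a catalytic subunit, fell by 0.85 in defeated mice (SE 0.07) and by 0.78 in controls, and without the GC and length trend it fell by 0.49 in defeated mice. Among 26 cholesterol synthesis genes, 9 fell and 3 rose in defeated mice and 12 fell in controls, with medians of -0.10 and -0.28, and 4 fell in defeated mice without D1-CSDS 2. Srebf2, the regulator of the pathway, fell by 0.46 in defeated mice (SE 0.08, edgeR adjusted p = 0.000224) and by 0.36 in controls, and Mvd by 0.54 in both, though Mvd did not pass in defeated mice without the trend (edgeR adjusted p = 0.392) and Srebf2 then fell by 0.20.

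**Figure D5:**
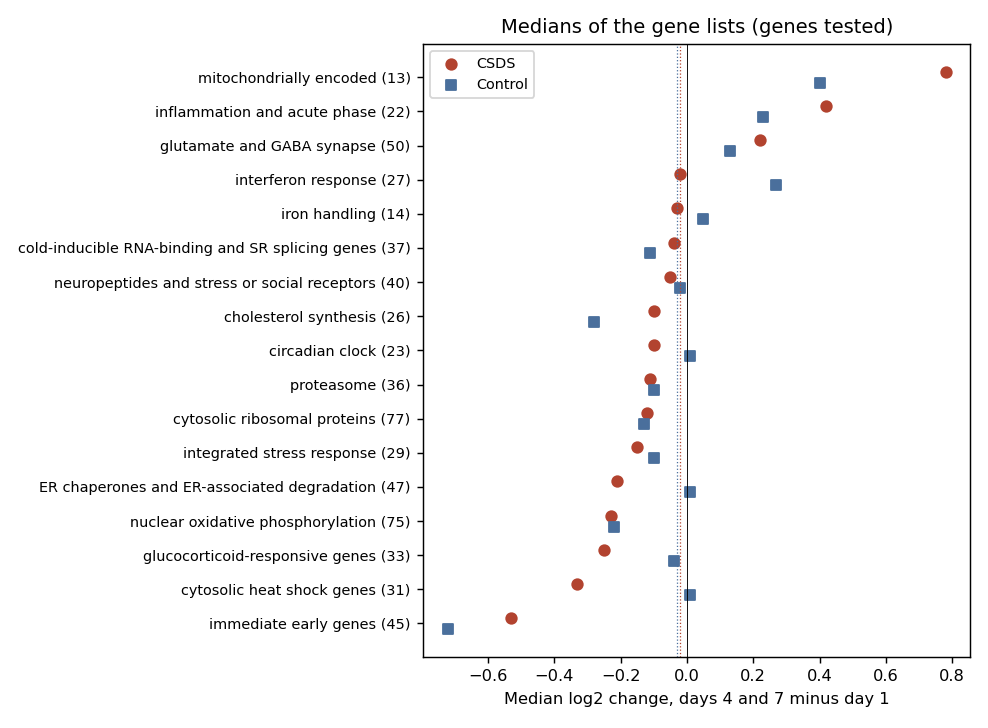
Each row is 1 gene list with the number of genes tested in brackets; circles give the median log2 change (days 4 and 7 minus day 1) in CSDS and squares that in control, and dotted lines mark the medians over all genes. Immediate early genes lie at -0.53 and -0.72 and nuclear oxidative phosphorylation at -0.23 and -0.22 in CSDS and control, while ER chaperones (-0.21 and 0.01) and cytosolic heat shock genes (-0.33 and 0.01) have the lower median in CSDS.

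More genes of glutamate and GABA synapses rose than fell on the later days in both arms, though in controls not once the GC and length trend was removed. Of 50 tested, 22 rose and 6 fell in defeated mice, with a median of 0.22, beside 13% and 18.5% of all genes. In controls 18 rose and 3 fell, with a median of 0.13, beside 8.38% and 15.5% of all genes. The list had 18 shared calls. Without D1-CSDS 2, 1 fell in defeated mice. Once the GC and length trend was removed, 9 rose and 1 fell in defeated mice, beside 7.05% and 9.5% of all genes. In controls 2 then rose and 2 fell, beside 5.04% and 8.36% of all genes. Gabrb2, a beta subunit of the GABA-A receptor, had 353 to 411 CPM later, with a median of 388, against 228, 237 and 276 CPM on day 1 in defeated mice.

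Controls had 322 to 417 CPM of Gabrb2 later, with a median of 375, against 249, 279 and 309 CPM on day 1. The groups were apart in both arms, and Gabrb2 rose by 0.64 in defeated mice (SE 0.10, edgeR adjusted p = 5.46e-05) and by 0.42 in controls (SE 0.10, edgeR adjusted p = 0.00368). Nlgn1, a postsynaptic adhesion molecule, rose by 0.55 and 0.29, and did not pass in defeated mice without the GC and length trend (edgeR adjusted p = 0.209).

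Of 40 neuropeptides and receptors of stress or social behaviour, 4 rose and 5 fell in defeated mice, below the 13% and 18.5% of all genes. In controls 4 rose and 2 fell, beside 8.38% and 15.5% of all genes. In defeated mice 2 fell without D1-CSDS 1 or D1-CSDS 2 and 3 without D1-CSDS 3 or D7-CSDS 1, and 2 rose without D1-CSDS 2, D4-CSDS 2 or D7-CSDS 1. Without the GC and length trend 1 rose and 2 fell in defeated mice, beside 7.05% and 9.5% of all genes. Oprm1, the mu opioid receptor, rose in both arms, with 5.18 to 8.77 CPM later, a median of 5.85, and 3.47, 3.66 and 4.19 CPM on day 1 in defeated mice (change 0.73, SE 0.18, edgeR adjusted p = 0.00381), and a change of 0.85 in controls (SE 0.18, edgeR adjusted p = 0.00188). On day 7 alone it did not pass in defeated mice (edgeR adjusted p = 0.0738). Sst, somatostatin, fell by 0.43 and 0.35, but in defeated mice it did not pass without D1-CSDS 2 (edgeR adjusted p = 0.0823) or without the trend (edgeR adjusted p = 0.624).

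Among 27 markers of lateral septum neurons, 5 rose and 2 fell in defeated mice, beside 13% and 18.5% of all genes, and 3 rose and 1 fell in controls; 2 rose without D1-CSDS 1 and 3 without D1-CSDS 2. Zeb2 rose by 0.60 and 0.40, or 0.29 in defeated mice with the GC and length trend removed, and Lhx2 fell by 0.51 and 0.53, without passing in defeated mice once the trend was removed (edgeR adjusted p = 0.204). Slc32a1, the vesicular GABA transporter, fell by 0.36 in defeated mice (SE 0.10, edgeR adjusted p = 0.00777) with 272 to 378 CPM later and 357, 437 and 413 CPM on day 1, and its change was 0.08 without the trend. It did not pass without D1-CSDS 2 (edgeR adjusted p = 0.0846) or on day 7 alone (edgeR adjusted p = 0.0781).

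Counts of glial and vascular markers stand beside 18.5% lower and 13% higher over all genes in defeated mice, and 9.5% and 7.05% without the GC and length trend. In controls they stand beside 15.5% lower and 8.38% higher. Of 20 microglial markers, 9 fell and 2 rose in defeated mice, and 8 fell and 2 rose in controls; without D1-CSDS 2, 3 fell in defeated mice. P2ry12, a purinergic receptor of microglia, had 26 to 35.6 CPM later, with a median of 30.6, against 16, 20.1 and 20 CPM on day 1 in defeated mice, and rose by 0.69 (SE 0.10, edgeR adjusted p = 3.31e-05) and by 0.36 in controls. Tmem119 and the complement gene C1qa fell by 0.58 and 0.53 in defeated mice and neither passed without the GC and length trend (edgeR adjusted p = 0.0833 and 0.624). With the trend removed, 2 microglial markers rose and none fell.

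Of 14 markers of oligodendrocyte precursors, 5 fell and 3 rose in defeated mice, with 3 lower without D1-CSDS 2, 2 without D1-CSDS 3 and 1 without the GC and length trend. Lhfpl3 rose by 0.65 and Matn4 fell by 0.86, against 0.48 and -0.52 in controls. Of 20 astrocyte markers, 8 fell in defeated mice and 4 in controls, and 1 rose in controls; 5 fell in defeated mice without D1-CSDS 3 and 3 without the trend. Htra1 fell by 0.53 and did not pass without the trend (edgeR adjusted p = 0.068). Of 20 myelin markers 1 fell, Ppp1r14a, by 0.67 (SE 0.18), and it did not pass without the trend (edgeR adjusted p = 0.661). The summed level of the myelin markers was 7230 to 10200 CPM later and 7740 to 9100 CPM on day 1 in defeated mice.

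Endothelial markers gave 7 higher and 4 lower of 22 in defeated mice, and 4 lower in controls. Cldn5, a tight junction protein of brain endothelium, had 15.9 to 21.2 CPM later, with a median of 17.4, against 30.1, 41.5 and 40.7 CPM on day 1 in defeated mice, and 13.5 to 21.3 CPM later against 35.6, 37.2 and 35.1 CPM on day 1 in controls. It fell by 1.07 and 1.04 (SE 0.12 each, edgeR adjusted p = 2.12e-06 in defeated mice), and by 0.59 in defeated mice without the trend. Of 22 markers of mural and leptomeningeal cells, 2 rose and none fell in defeated mice, with a median of 0.01. In controls 2 rose and 1 fell. Without D4-CSDS 3, 2 rose and 3 fell in defeated mice, and without the trend 4 rose and none fell. Among the risers, Rgs5, a pericyte marker, rose in both arms, by 0.47 and 0.22, and by 0.27 in defeated mice without the trend.

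Vwf, the von Willebrand factor of endothelium and platelets, was higher on the later days in defeated mice. It had 33.2 to 53.7 CPM later, with a median of 39, against 19.1, 30 and 17.5 CPM on day 1, while controls had 15.2 to 19.9 CPM later and 21.7, 20.9 and 14.6 CPM on day 1. The 6 later CSDS libraries stood above all the others named here. Vwf rose by 0.90 in defeated mice (SE 0.20, edgeR adjusted p = 0.00125), with a change of -0.08 in controls, and the difference of 0.98 (SE 0.27) had an edgeR adjusted p of 0.409.

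Lrg1, a glycoprotein of the acute phase and of activated endothelium, had 1.16 to 2.77 CPM later, with a median of 1.55, against 0.648, 1.16 and 0.336 CPM on day 1 in defeated mice, and rose by 1.24 (SE 0.40, edgeR adjusted p = 0.0225). It did not pass without D7-CSDS 2, D1-CSDS 1 or D1-CSDS 3, with adjusted p up to 0.12, or on day 4 alone (edgeR adjusted p = 0.0563). Later controls held 0.0528 to 0.549 CPM. Of 30 genes of inflammation and the acute phase, 22 passed the filter on low counts. Among these 22, 7 rose and none fell in defeated mice, beside 13% and 18.5% of all genes. Members near 0 CPM on day 1, such as S100a9 and Selp, could only be counted as higher. The counts are therefore not an even comparison with all genes. In controls 1 rose and 1 fell, beside 8.38% and 15.5% of all genes. The 7 became 3 without D1-CSDS 1 or D7-CSDS 2, 4 without D1-CSDS 2 or D4-CSDS 3, and 2 without D1-CSDS 3. Among them S100a9, a neutrophil calcium-binding protein, had 0.114 to 1.28 CPM later, with a median of 0.419, against 0.0499, 0.0516 and 0 CPM on day 1 (edgeR adjusted p = 0.00665).

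The summed level of 13 blood markers was 288 to 396 CPM in the later CSDS libraries and 242 to 288 CPM on day 1. Of them 4 rose, beside 13% of all genes, against 1 in controls, or 2 without D1-CSDS 1 or D1-CSDS 2. The blood list had 19 entries, of which these 13 passed the filter on low counts. S100a9 is in the blood list as well, so the same limit holds for its count. Hbb-bs, adult beta globin, had 3.49 to 67.6 CPM later, with a median of 29.4, against 0.524, 2.63 and 3.54 CPM on day 1 in defeated mice, and 0.227 to 3.34 CPM in later controls. Its groups overlapped at their edges, and it rose by 3.36 (SE 1.07, edgeR adjusted p = 0.0205). Hbb-bt, a near-identical globin whose reads may be split with it, rose by 2.85 (SE 0.94, edgeR adjusted p = 0.0249). The change of Hbb-bs was 2.11 on day 4 (edgeR adjusted p = 0.184) and 4.60 on day 7 (edgeR adjusted p = 0.00628), and Hbb-bt likewise passed on day 7 and not on day 4 (edgeR adjusted p = 0.247). Neither globin passed without D1-CSDS 1 or D1-CSDS 2 (adjusted p up to 0.0883 for Hbb-bs and 0.1 for Hbb-bt). The part of blood cells in the values of Vwf, Lrg1, S100a9 and Selp was not tested. Selp, P-selectin, had 0 CPM in all 3 day 1 CSDS libraries and 0 to 1.29 CPM later, so no fold is given.

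Of 27 interferon response genes, 3 fell and 1 rose in defeated mice and 3 rose in controls; 4 rose and 1 fell in defeated mice without D1-CSDS 3. Of all genes 18.5% fell and 13% rose in defeated mice, and 15.5% fell and 8.38% rose in controls. Irf9, a factor of interferon signalling, fell by 0.55 in defeated mice (SE 0.14, edgeR adjusted p = 0.00501), Isg15 by 1.26 (SE 0.34, edgeR adjusted p = 0.00727) and Ifi27 by 1.11 (SE 0.30, edgeR adjusted p = 0.00747). Isg15 had 0.411 to 1.24 CPM later and 1.05, 1.21 and 2.64 CPM on day 1, with overlap. Irf9 and Isg15 did not pass without D1-CSDS 3, nor Ifi27 without D1-CSDS 1, where adjusted p-values were 0.0697, 0.163 and 0.173; Ifi27 also did not pass on day 7 alone (edgeR adjusted p = 0.0591).

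All 23 choroid plexus markers had a lower mean in the later CSDS libraries, with a median change of -0.95, and a higher one in later controls, with a median of 2.08, and none passed in either arm. Their summed level was 399 to 5620 CPM later and 402 to 13800 CPM on day 1 in defeated mice, so that single libraries set these means. Without D1-CSDS 1 the median in defeated mice was 1.68. With choroid plexus and cortex scores as covariates, 6473 genes were called in defeated mice and 2 passed for the difference. Of 20 ependymal markers, 4 rose and 2 fell in defeated mice, beside 13% and 18.5% of all genes. In controls 6 rose, beside 8.38% of all genes. None rose in defeated mice without D1-CSDS 2, and 2 without D1-CSDS 1, D1-CSDS 3 or D4-CSDS 3.

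The genes with the widest change whose later and day 1 libraries did not overlap in defeated mice were mostly of low abundance. Over all genes, 13.1% were higher and 16.7% lower without overlap. Among the higher ones, Bc1, a noncoding RNA of neuronal dendrites, had 12.1 to 18.9 CPM later, with a median of 13.4, against 3.69, 1.6 and 4.68 CPM on day 1, and rose by 2.08 (SE 0.28, edgeR adjusted p = 1.29e-05) and by 1.63 in controls. Lcn2, a secreted iron-siderophore carrier of the acute phase, rose by 3.12 (SE 1.12, edgeR adjusted p = 0.038), with 0.741 to 12 CPM later and 0.374, 0.31 and 0.103 CPM on day 1. It lost its call without any 1 of the 3 day 1 libraries, D4-CSDS 2, D4-CSDS 3 or D7-CSDS 2, with adjusted p up to 0.122, and on day 4 alone (edgeR adjusted p = 0.267), and its change in controls was 3.00.

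The receptor genes Glra1, of the glycine receptor, and Tshr, of thyrotropin, rose in both arms, by 1.07 and 1.04 in defeated mice and by 1.28 and 0.86 in controls. Chrna3, a nicotinic receptor subunit, rose by 1.06 (SE 0.31, edgeR adjusted p = 0.0111), though not without D1-CSDS 1 (edgeR adjusted p = 0.0727) or on day 7 alone (edgeR adjusted p = 0.0634). Ppp1r17, a phosphatase inhibitor, rose by 1.56 in defeated mice (SE 0.41, edgeR adjusted p = 0.00562), and Rad21l, a cohesin subunit known from meiosis, by 1.45 (SE 0.38, edgeR adjusted p = 0.00531), with changes of 0.10 and 0.01 in controls. Both were near 1 CPM, at medians of 1.05 and 1.2 CPM in the later CSDS libraries.

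Among the lower ones, Adnp, a homeodomain protein of chromatin, had 1.08 to 1.69 CPM later, with a median of 1.46, against 4.61, 5.99 and 4.16 CPM on day 1 in defeated mice. Later controls had 1.12 to 1.97 CPM, against 4.71, 4.65 and 3.35 CPM on day 1. The arms were alike, with falls of 1.79 (SE 0.21, edgeR adjusted p = 2.12e-06) and 1.47 (SE 0.21). Nptxr, a receptor of neuronal pentraxins, fell by 1.90 and 2.21, Nrtn, the growth factor neurturin, by 1.65 and 1.26, and Lor, loricrin, by 1.51 and 1.36. Without the GC and length trend Lor fell by 0.77 in defeated mice and Nrtn did not pass (edgeR adjusted p = 0.124). Tnfrsf12a, the TWEAK receptor, fell by 1.48 in defeated mice (SE 0.23, edgeR adjusted p = 6.85e-05), with -0.64 in controls (edgeR adjusted p = 0.0568). Ndufb4b and Rpl34-ps1 also fell in both arms, but their reads can be shared with near-identical genes. The antisense gene Grin1os fell by 1.80 and 1.68, and the strand setting of the counting is not given in the sources used here.

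The later days themselves were not told apart among defeated mice. No gene passed for day 7 minus day 4 in edgeR, 0% of those tested, while 945 genes, 5.23%, had an unadjusted p below 0.05. The DESeq2 test made 1 call. Against day 1, day 4 alone gave 4439 calls and day 7 alone 4765. Several ER and heat shock genes stood further from day 1 at day 7, although day 7 minus day 4 did not pass. Hspa5 changed by -0.53 at day 4 (SE 0.20, edgeR adjusted p = 0.0511) and fell by 0.84 at day 7 (SE 0.20, edgeR adjusted p = 0.00333). Manf changed by -0.46 (edgeR adjusted p = 0.052) and fell by 0.81, and Hsph1 changed by -0.26 (edgeR adjusted p = 0.0566) and fell by 0.46. Hspb1 fell by 1.19 at day 4 and by 1.20 at day 7.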

How the data were processed

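The authors deposited read counts and FPKM per gene for 24 libraries of polyadenylated RNA, sequenced as 150 bp pairs per the labels. Tools given in the submitters' processing notes are fastp, HISAT2 and HTSeq, with no version, and the build is GRCm39. The deposited counts went into edgeR 4.0.16 under R 4.3.3: filterByExpr by group, TMM, a mean for each of 8 groups, glmQLFit over all 24 libraries (16 residual degrees of freedom, prior 5.14) and two-sided glmQLFTest, with Benjamini-Hochberg adjustment over 18060 genes. The contrast weighted days 4 and 7 equally against day 1, in CSDS, in control, and as CSDS minus control. A CSDS call was shared if also called in control with the same sign, not shared if the difference passed, and undecided otherwise.

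The members and gene lists were chosen with earlier results of these data known. Named genes were up to 12 higher and 12 lower calls by size of change, abundant enough to reach 1 CPM in the higher group and without overlap of libraries, the 5 smallest p-values of the difference, up to 4 calls per list, and a fixed set. Promoters are those of the first 4 named genes that were called in CSDS and hold a motif, in the order of the difference p; that order and the motif list were settled after matches had been seen. Of 149 named genes, 121 had a promoter in the table. GC content came from GRCm38 transcripts matched by symbol (90.8% of genes), length from the ratio of deposited counts to FPKM. Alternatives used DESeq2 1.42.0, and limma 3.58.1 on log2(FPKM + 1). The code was tested on simulated data. No library was left out. A few genes that the rule names are not reported here.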

Additional observations from a re-analysis of the deposited data

Results flagged for a closer look

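Among 298 sets of 6 later libraries checked on log2(CPM + 0.1), 16 had 1 library set apart from the rest, its gap to the nearest library divided by the whole range being above Dixon's 0.625; chance marks about 1 in 20 sets. The gap is given as that share of the range.

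Among the later CSDS libraries, Lcn2 (0.671) was highest in D7-CSDS 2, with 12 CPM against 1.92 CPM in the next library, and Irf9 (0.674) was highest in the same library, with 8.16 against 7.26 CPM. Srebf2 (0.638) was lowest in D7-CSDS 2, with 138 against 148 CPM. Npas4 (0.626) was lowest in D7-CSDS 1, with 7.7 against 13.2 CPM, and Lrrc10b (0.667) highest in D7-CSDS 3, with 40 against 32.8 CPM. On day 4, Gadd45g (0.760) was highest in D4-CSDS 2, with 10.7 against 8.57 CPM, Steap3 (0.654) lowest in D4-CSDS 1, with 4.99 against 5.95 CPM, and Rora (0.728) highest in D4-CSDS 3, with 69 against 53.7 CPM.

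Among the later controls, D7-Ctrl 1 was lowest for Bc1 (0.688), with 10.7 against 13.5 CPM, and for Sdf2l1 (0.646), with 6.1 against 10.1 CPM. Rpl34-ps1 (0.809) was lowest in D7-Ctrl 2, with 1.02 against 1.77 CPM, and Zeb2 (0.749) highest in D7-Ctrl 3, with 158 against 118 CPM. D4-Ctrl 2 was lowest for Tek (0.630), with 14.7 against 16.7 CPM, and for Abcc9 (0.634), with 9.3 against 12.7 CPM. Dlx6os1 (0.688) was lowest in D4-Ctrl 1, with 43.9 against 52.6 CPM, and Ndufc1 (0.627) highest in D4-Ctrl 3, with 22.8 against 21.2 CPM.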

How the results depend on the processing

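The counts of calls in CSDS and in control stayed within 1.5 times under RLE size factors (5655 and 4287), no or a stricter filter on low counts (4989 and 3646, 5690 and 4393), DESeq2, limma on FPKM, tissue scores as covariates and either later day alone. With the GC and length trend of each library removed they were 2716 and 2199. Leaving out single libraries gave 3986 to 5400 calls in CSDS and 2829 to 4348 in control, the lowest without D1-CSDS 2 and D1-Ctrl 2. The CSDS minus control comparison had 0 calls, but 3 without a filter on low counts, 23 in DESeq2, 7 from the libraries of the compared groups alone, 2 with the covariates, 9 without D10-Ctrl 1, and 0 to 4 when single libraries were left out. Day 7 minus day 4 in CSDS had 1 call in DESeq2 and 1 from the compared groups alone. The causes were not tested.

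Directions turned for a few genes. In CSDS with the GC and length trend removed, the changes were -0.063 for Srpk2, -0.15 for Ireb2, 0.081 for Slc32a1, 0.038 for Nrgn, 0.048 for C1qb, -0.016 for Dcx and 0.18 for Tubb3. With covariates Ttr was 0.088 in CSDS and 0.77 in the difference, and Slc17a7 -0.34 in the difference. For the difference, day 4 alone gave -0.13 for Egr1, -0.11 for Per1 and 0.060 for Dbp, and day 7 alone -0.11 for Npas4 and -0.019 for Slc17a7. When single libraries were left out, Ttr ran from -3.61 to 2.84 and Slc17a7 from -1.45 to 0.13 in CSDS. In the difference Cdnf ran from -0.021 to 0.39, Egr1 from -0.029 to 0.18, Per1 from -0.052 to 0.13 and Slc17a7 from -0.16 to 1.42.

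Equal replicate numbers did not pair the libraries: 1 of 18 correlated best with its own number, and the median correlation of 45 same-numbered pairs was -0.0551. With a replicate block there were 5459 calls in CSDS, 4022 in control, 0 for the difference and 0 for day 7 minus day 4. With 3 libraries on day 1, genes near 1 CPM carry SEs several times the median of 0.114.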
